A study of Mus musculus with 6 samples.

Results

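A set of 36 genes of fatty acid oxidation and activation were followed in neural progenitor cultures with and without a knockout of Ash2l. The members were the rows of the deposited table whose gene name was on a list of 36 genes, out of 54532 genes in all, and each listed name matched 1 row. They were sorted by role into 21 mitochondrial genes (5 of carnitine-dependent entry, 13 of the oxidation spiral and 3 of electron transfer), 3 peroxisomal genes, 6 acyl-CoA synthetases, 2 fatty acid binding proteins, 2 nuclear receptors and 2 thioesterases. All 36 passed the filter on low counts.

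The libraries came from primary neurospheres, that is, balls of cultured progenitors that float free, of C57BL/6 mouse embryos at E14.5, and RNA was taken on day 6 of culture with EGF and bFGF. The labels disagree on the tissue: the source is given as dorsal cortex, whereas the growth protocol describes dissecting the walls that line the lateral ventricles on their lateral side. WT libraries (numbers 3, 6 and 7) are labelled wild type and KO libraries (numbers 1, 2 and 3) are labelled as a conditional Ash2l knockout, driven by D6-Cre (a transgene whose promoter places the recombinase in dorsal forebrain) according to the series. The ASH2L protein belongs to the core of the complexes that methylate lysine 4 of histone H3. Whether the WT embryos carried the Cre transgene or a floxed allele is not stated in the sources used here, nor whether each library is an embryo or culture of its own, so p-values reflect only how far these libraries spread, and that spread may be technical. Library values are given throughout in the order WT 3, WT 6 and WT 7, then KO 1, KO 2 and KO 3.

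Fatty acids enter metabolism in steps that each have their own enzymes. Acyl-CoA synthetases join a fatty acid to coenzyme A, the carnitine shuttle carries long chains into mitochondria, and the oxidation spiral then removes acetyl-CoA through repeated dehydrogenation, hydration, a second dehydrogenation and thiolysis. Peroxisomes run a parallel spiral that shortens very long chains, and fatty acid binding proteins carry the unesterified acids through the cytosol. PPAR nuclear receptors activate many of these genes in liver and heart. In the brain, oxidation of fatty acids is chiefly attributed to astrocytes and neural stem cells.

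Total counts over genes lay between 16764480 and 21983659, depths at which 3 reads equal 0.136 to 0.179 normalised counts scaled to library size (CPM). Coordinates are those of mm10 with the GENCODE M21 annotation. Ash2l itself measured 113 ± 3.55 CPM in WT against 95.7 ± 8.40 CPM in KO (SD, n = 3 each). The KO libraries lay below the WT libraries, and the difference did not pass the threshold (log2 fold change -0.24, SE 0.10, with an adjusted p = 0.119 by the edgeR quasi-likelihood test and Benjamini-Hochberg adjustment over all genes). A count over the whole gene includes exons that a deletion leaves in place. Of 8 markers of radial glia and neural stem cells 4 fell (Hes5 by 2.97, Pax6 by 1.24 and Sox2 by 1.15 on the log2 scale, and Prom1 from a mean of 28.9 to 14.3 CPM), Nes rose by 2.21 and 3 did not pass. Their sum lay at 2358 to 3157 CPM in WT libraries and 2284 to 3377 CPM in KO libraries, most of it from Vim (means of 1597 and 1713 CPM), which did not pass. Astrocyte markers fell in 9 of 12 and rose in 0, with WT sums of 3740 to 11070 CPM and KO sums of 1760 to 2705 CPM, and Gjb6 was at 0 in 1 KO library. All 7 markers of cycling cells rose, from sums of 206 to 355 CPM in WT to 2206 to 2928 CPM in KO. Of 10 oligodendrocyte lineage markers 6 fell (WT 3885 to 4664 CPM, KO 1170 to 2164 CPM), and of 9 neuronal markers 0 passed in edgeR (WT 1341 to 2381 CPM, KO 2298 to 3484 CPM). The neuronal markers had a median log2 fold change of 1.41. Every KO library lay above every WT library in 5 of them (23.5% of all tested genes) and below in 0 (25.2%). Map2 was the largest part of their sums (means of 1031 and 859 CPM) and did not pass. Markers of microglia reached at most 13.3 CPM and endothelial markers at most 6.87 CPM in any library, with the endothelial genes Cdh5 and Cldn5 at 0 in all WT libraries. Mural and meningeal markers summed to 403 CPM in KO 1 and to 25.5 to 61.3 CPM in the other libraries.

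Promoter stretches of 6 genes are shown first, because the acyl-CoA synthetases below moved in opposite directions and the dehydrogenase genes Acadvl and Acadm fell together. Each is the 250 bases before the RefSeq start, from the RefSeq promoter table for GRCm38.p6 (mm10), 5′ to 3′ on the strand of the gene, and overlaps no exon of GENCODE M21. Capitals mark the CCAAT box (CCAAT or ATTGG) in the synthetase promoters and the motif AGGTCA (or TGACCT), which many nuclear receptors recognise, in Acadvl and Acadm.
Acsl3, chr1:78657575-78657824, plus strand: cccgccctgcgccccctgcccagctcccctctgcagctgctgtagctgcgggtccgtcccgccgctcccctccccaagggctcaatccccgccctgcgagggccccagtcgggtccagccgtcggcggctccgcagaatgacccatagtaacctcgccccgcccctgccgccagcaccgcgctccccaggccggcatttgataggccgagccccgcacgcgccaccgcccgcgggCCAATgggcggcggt
Acsbg1, chr9:54661886-54662135, minus strand: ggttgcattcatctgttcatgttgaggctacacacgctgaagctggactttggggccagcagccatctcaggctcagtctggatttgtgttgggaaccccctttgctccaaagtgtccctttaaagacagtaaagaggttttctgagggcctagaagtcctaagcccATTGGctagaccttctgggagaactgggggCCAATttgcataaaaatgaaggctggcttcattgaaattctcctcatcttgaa
Acsl4, chrX:142390536-142390785, minus strand: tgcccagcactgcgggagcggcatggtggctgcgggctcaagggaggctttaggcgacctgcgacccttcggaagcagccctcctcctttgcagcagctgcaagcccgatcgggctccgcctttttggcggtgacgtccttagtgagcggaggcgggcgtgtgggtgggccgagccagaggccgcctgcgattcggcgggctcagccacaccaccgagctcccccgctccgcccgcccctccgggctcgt
Acsl5, chr19:55253119-55253368, plus strand: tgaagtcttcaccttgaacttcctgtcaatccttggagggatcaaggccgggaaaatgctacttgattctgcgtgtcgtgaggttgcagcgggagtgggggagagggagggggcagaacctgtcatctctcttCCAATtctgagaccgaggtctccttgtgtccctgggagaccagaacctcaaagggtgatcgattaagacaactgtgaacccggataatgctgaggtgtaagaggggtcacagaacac
Acadvl, chr11:70015429-70015678, minus strand: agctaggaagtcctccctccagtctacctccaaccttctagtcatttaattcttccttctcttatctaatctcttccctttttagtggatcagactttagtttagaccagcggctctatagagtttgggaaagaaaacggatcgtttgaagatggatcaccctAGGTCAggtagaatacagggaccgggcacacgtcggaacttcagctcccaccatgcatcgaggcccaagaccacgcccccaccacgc
Acadm, chr3:153944644-153944893, minus strand: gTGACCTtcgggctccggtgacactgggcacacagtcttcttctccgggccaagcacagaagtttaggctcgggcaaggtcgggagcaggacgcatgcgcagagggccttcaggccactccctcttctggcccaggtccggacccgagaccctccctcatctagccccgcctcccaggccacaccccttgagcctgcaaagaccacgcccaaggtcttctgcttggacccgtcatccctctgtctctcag

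The promoters of the synthetases differ in composition. That of Acsl3 holds 75.6% G and C and that of Acsl4 70.8%, against 48.4% for Acsbg1 and 52.8% for Acsl5. Of the 36 members 30 had a window of 300 bases (250 before and 50 after the start) in the table, with 33 windows between them. AGGTCA was found on either strand in windows of 7 of the 30 genes (Acadm, Acadvl, Acsl6, Cpt1a, Cpt1c, Echs1 and Fabp7). By window it was in 7 of the 33, and in 16.3% of all 32851 windows. CCAAT was found in 18 of the 30 genes and in 19 of the 33 windows, against 37.4% of all windows. The exact consensus of the PPAR response element, a direct repeat of AGGTCA with 1 base between the copies, was in 0 of the 30 (0.0396% of all windows). Each such repeat also holds AGGTCA. Variants of the element were not searched, and with so rare a string a count of 0 says little about these genes. The longer element TCAAGGTCA of the estrogen-related receptors, which also holds AGGTCA, was in Acsl6 and in 0.423% of all windows. A TATA box (TATAAA) and the E box CACGTG were found in no member (13.6% and 7.15% of all windows). The NRF1 palindrome was in Etfdh and Ppara (0.971% of all windows), and the sterol element core TCACNCCAC in Acsl1 and Ehhadh (1.24%). These matches describe letters in a short window and were not tested as binding sites.

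Of the 21 mitochondrial members 8 fell, 1 rose and 12 did not pass, of the 3 peroxisomal members 1 fell, and of the 6 acyl-CoA synthetases 1 fell and 2 rose. Over all 36 members 13 fell and 3 rose at an adjusted p of 0.05 (edgeR quasi-likelihood test), and 20 did not pass. Over all 16606 tested genes 29% passed, 15.5% lower and 13.5% higher. The share of the members (16 of 36, 44.4%) lay above that of all genes. This difference was not tested, and the members were chosen with earlier results of these data known. The log2 fold change (KO over WT throughout) had a median of -0.47 over the members and 0.00 over all tested genes. The members that fell were Acadvl, Acadm, Acads, Hadha, Echs1, Eci2, Decr1 and Acaa2 of the mitochondrial spiral, the peroxisomal thiolase Acaa1a, the synthetase Acsl3, the binding protein Fabp5, and the thioesterases Acot1 and Acot2. Those that rose were Acat1, Acsl4 and Acsl5. Of the 13 that fell 6 did so by more than 2-fold. KO and WT libraries were fully apart in 26 members (48.6% of all tested genes), with KO under WT throughout in 21 (25.2% of all tested genes) and over it in 5 (23.5%). In bulk RNA fewer cells of a type and less RNA per cell cannot be told apart, and the part of the lower astrocyte and higher cycling markers in these differences was not tested.

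**Figure D1:**
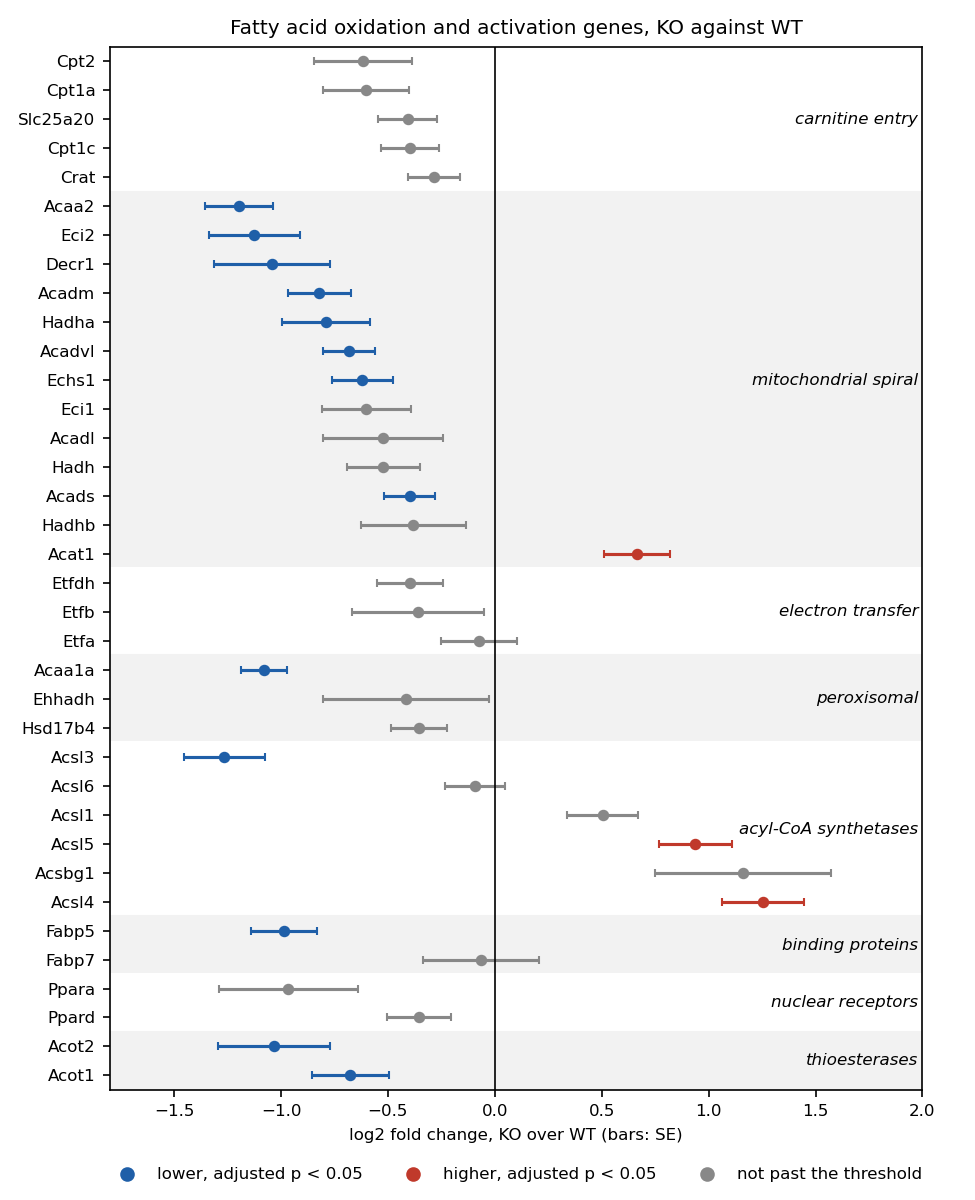
Log2 fold change of KO over WT (x axis, bars show the SE) for the 36 members, grouped by role. Blue points fell and red points rose at an adjusted p under 0.05, and grey points did not pass. Most points lie left of 0, and the acyl-CoA synthetases spread from -1.26 (Acsl3) to 1.25 (Acsl4).

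In each group a single library was the lowest for most of the members that fell. WT 3 was the lowest WT library in 12 of the 13 members that fell and KO 1 the lowest KO library in all 13 of them. Among all 2572 genes that fell, these shares were 64.2% for WT 3 and 47.9% for KO 1. By marker sums, WT 3 was the lowest WT library for astrocytes (3740 CPM) and the highest for neurons (2381 CPM). KO 1 was the lowest KO library for the oligodendrocyte lineage (1170 CPM) and the highest for neuronal (3484 CPM) and mural markers (403 CPM). For astrocytes KO 3 (1760 CPM), not KO 1 (1934 CPM), was the lowest KO library. The part of these cells in the library order was not tested. Without WT 3 the members passing the test were 23, and 6641 of all 17365 tested genes passed. Without WT 6, WT 7 or KO 2 the members were 9, 10 and 10, and the genes 2178, 2449 and 2519. Leaving out KO 1 or KO 3 gave 11 and 14 members, and 2889 and 4266 genes. The count over all genes was thus also highest without WT 3 and lowest without WT 6.

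The genes listed for carnitine-dependent entry showed no member past the threshold in the main edgeR fit. All 5 genes lay lower in every KO library than in every WT library, as did 25.2% of all tested genes. Cpt1a, which makes acylcarnitine at the outer membrane and is regarded as the rate-limiting step, was read at 95.5, 135 and 170 CPM in the WT libraries, and at 88.9, 91.0 and 84.4 CPM in the KO libraries. WT 3 lay close to the KO libraries and WT 7 far above them. The log2 fold change was -0.60 (SE 0.20, adjusted p = 0.0622, edgeR), and -0.80 without WT 3, where it passed (adjusted p = 0.00367, edgeR). Cpt2, the inner membrane transferase, stood at 24.0, 25.6 and 29.1 CPM (WT) against 11.8, 18.4 and 21.2 CPM (KO) (-0.62, SE 0.23). Slc25a20, the carnitine carrier of the inner membrane, stood at -0.41 (SE 0.14) and Crat, the transferase for short acyl groups, at -0.28 (SE 0.12). Cpt1c, a neuronal relative on the endoplasmic reticulum with little transferase activity, is counted here among the mitochondrial members. It stood at -0.40 (SE 0.13). Adjusted p-values of the 5 lay between 0.0622 and 0.121 (edgeR). With limma-voom all 5 passed (adjusted p from 0.00905 to 0.0444), as did 8052 of all 16606 tested genes. Cpt1a also passed with DESeq2 and with no filter, and Cpt1c without KO 3.

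The spiral itself held most of the changed members. Of 13 genes 8 fell, 1 rose and 4 did not pass, with a median log2 fold change of -0.62. Its genes summed to 382, 497 and 494 FPKM (the length-scaled unit of the deposited table) in WT 3, WT 6 and WT 7. The KO libraries gave 311, 376 and 331 FPKM. The highest KO sum lay just under that of WT 3.

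Acaa2, the mitochondrial thiolase that releases acetyl-CoA from medium and long chains (chromosome 18, 74779197 to 74806207, plus strand), showed the largest fall of the spiral. It had WT libraries at 70.0, 95.4 and 99.2 CPM and KO libraries at 35.1, 41.7 and 38.6 CPM. The KO libraries lay close together and well under the lowest WT library. The log2 fold change was -1.20 (SE 0.16, adjusted p = 0.00331, edgeR), and the call held under each alternative run.

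The auxiliary enzymes for unsaturated chains followed. Eci2, an enoyl-CoA isomerase found in mitochondria and peroxisomes, was read at 118, 189 and 169 CPM in the WT libraries, and at 57.4, 77.7 and 83.0 CPM in the KO libraries (log2 fold change -1.13, SE 0.21, adjusted p = 0.0101, edgeR). Decr1, the 2,4-dienoyl-CoA reductase, stood at 31.3, 54.5 and 54.5 CPM (WT) against 16.6, 27.1 and 24.4 CPM (KO) (-1.04, SE 0.27). The groups of both genes were apart, with WT 3 nearest to KO. The call of Decr1 was lost without any single library except WT 3. Eci1, the main mitochondrial isomerase, missed the threshold (-0.60, SE 0.21, adjusted p = 0.0693, edgeR), with KO 3 at 40.9 CPM just above WT 3 at 40.0 CPM.

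The acyl-CoA dehydrogenases, which open each turn of the spiral, are specialised by chain length. Acadvl, for very long chains, had WT libraries at 71.7, 91.4 and 85.5 CPM and KO libraries at 48.0, 52.0 and 54.9 CPM (log2 fold change -0.68, SE 0.12, adjusted p = 0.00852, edgeR). Acadm, for medium chains and the enzyme lost in MCAD deficiency, was read at 86.0, 107 and 114 CPM in the WT libraries, and at 50.6, 64.7 and 58.9 CPM in the KO libraries (-0.82, SE 0.15, adjusted p = 0.00844, edgeR). Both kept their call whichever library was left out. Acads, for short chains, fell by 0.40 on the log2 scale (SE 0.12, adjusted p = 0.0433, edgeR), and this call was lost without each of the 6 libraries in turn and under other normalisations. Acadl, for long chains and the most abundant of the 4 at 105 FPKM in WT, stood at 137, 257 and 253 CPM (WT) against 151, 187 and 113 CPM (KO). WT 3 lay under KO 1 and KO 2 and the other WT libraries above them, and Acadl did not pass (-0.52, SE 0.28, adjusted p = 0.194, edgeR) except without WT 3 (-0.77) or with limma-voom. Acadl made up 55.7 ± 6.68% of the summed FPKM of the 4 genes in WT and 57.9 ± 6.57% in KO (SD, n = 3 each).

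The subunits of the trifunctional protein, a complex of the inner membrane that carries out the last 3 reactions on long chains, gave different calls. Hadha, the alpha subunit with hydratase and dehydrogenase activity, had WT libraries at 233, 365 and 355 CPM and KO libraries at 164, 218 and 170 CPM. It fell by 0.79 on the log2 scale (SE 0.21, adjusted p = 0.029, edgeR), a call lost without WT 6, WT 7, KO 1 or KO 3. Hadhb, the beta subunit with thiolase activity, was read at 73.8, 119 and 118 CPM in the WT libraries, and at 65.8, 104 and 68.7 CPM in the KO libraries, with overlapping groups (-0.38, SE 0.25, adjusted p = 0.268, edgeR). The difference between the subunits was not tested. Echs1, the short-chain hydratase, fell by 0.62 (SE 0.14, adjusted p = 0.0201, edgeR), and its call was lost without WT 6, WT 7 or KO 2. Hadh, the short-chain hydroxyacyl-CoA dehydrogenase, stood at -0.52 (SE 0.17, adjusted p = 0.0573, edgeR).

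Acat1 went the other way. It encodes the mitochondrial acetoacetyl-CoA thiolase, which serves isoleucine and ketone body metabolism more than the long-chain spiral. It stood at 203, 168 and 141 CPM (WT) against 244, 278 and 287 CPM (KO), so every KO library was above every WT library. It rose by 0.66 on the log2 scale (SE 0.15, adjusted p = 0.0202, edgeR), a call lost without WT 6, WT 7, KO 2 or KO 3. The ratio of Acat1 to Acaa2 in FPKM was 0.816 ± 0.312 in WT and 2.83 ± 0.158 in KO (SD, n = 3 each).

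Electron transfer from the dehydrogenases showed no call. Etfa and Etfb, the subunits of the electron transfer flavoprotein, stood at -0.07 (SE 0.18) and -0.36 (SE 0.31), and Etfdh, which passes the electrons to ubiquinone, at -0.40 (SE 0.15). The groups overlapped in all 3. Etfa had WT libraries at 64.7, 94.4 and 87.9 CPM and KO libraries at 74.1, 92.2 and 68.4 CPM, and its sign turned when WT 6 or KO 3 was left out.

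In peroxisomes, the thiolase fell and the other 2 members did not pass. Acaa1a (chromosome 9, 119339676 to 119350299, plus strand) was read at 176, 190 and 201 CPM in the WT libraries, and at 82.7, 87.5 and 98.0 CPM in the KO libraries. Both groups were narrow and far apart, and the log2 fold change was -1.08 (SE 0.11, adjusted p = 0.00169, edgeR), the lowest p of the members. Acaa1b, a near-identical neighbour singled out after its values were seen, averaged 0.265 CPM in WT against 2.44 CPM in KO and rose (3.20, SE 0.63, adjusted p = 0.0118, edgeR; 4.003 without WT 3, and no call without WT 7). Reads can be split between the pair, so both values are uncertain. Hsd17b4, the D-bifunctional protein, stood at -0.35 (SE 0.13) with KO 2 at 185 CPM just above WT 3 at 184 CPM. Ehhadh, the L-bifunctional protein and a classical PPAR target of liver, was near the lowest level of the members at 0.795 FPKM in WT and 0.626 FPKM in KO.

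The acyl-CoA synthetases changed in both directions, with 1 lower and 2 higher of 6. Acsl3, an enzyme of the endoplasmic reticulum and of lipid droplets (chromosome 1, 78657825 to 78707743, plus strand), stood at 205, 243 and 332 CPM (WT) against 99.7, 119 and 106 CPM (KO). It had the largest fall of all members (log2 fold change -1.26, SE 0.19, adjusted p = 0.00466, edgeR). Its span overlaps Utp14b, a gene whose mean went from 36.8 to 15.1 CPM and fell by 1.28 on the log2 scale (adjusted p = 0.0161, edgeR), and how many reads they share was not measured.

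Acsl4, which prefers arachidonic acid and is known for its role in lipid peroxidation and ferroptosis (chromosome X, 142317993 to 142390535, minus strand), had WT libraries at 26.4, 19.7 and 16.6 CPM and KO libraries at 51.7, 53.1 and 44.6 CPM. It rose by 1.25 on the log2 scale (SE 0.19, adjusted p = 0.00499, edgeR). Acsl5, a synthetase of mitochondria and endoplasmic reticulum, was read at 10.8, 9.02 and 8.94 CPM in the WT libraries, and at 16.6, 18.5 and 19.9 CPM in the KO libraries, and rose by 0.94 (SE 0.17, adjusted p = 0.00878, edgeR). In both genes every KO library was above every WT library, and the calls held whichever library was left out. Acsl1, the main isoform of fat and liver, averaged 11.9 ± 0.354 CPM and 16.8 ± 2.07 CPM in the groups (SD, n = 3; log2 fold change 0.50, SE 0.17, adjusted p = 0.0593, edgeR). The annotated span of Acsl5 overlaps Zdhhc6, whose mean was 46.9 CPM in WT against 49.0 CPM in KO, above the level of Acsl5 itself. Acsl6, a brain isoform linked to docosahexaenoic acid, stood at -0.09 (SE 0.14).

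Acsbg1, a synthetase of the bubblegum family that is abundant in brain and acts on long and very long chains (chromosome 9, 54604877 to 54661870, minus strand), stood at 40.3, 97.7 and 142 CPM (WT) against 223, 234 and 169 CPM (KO). Every KO library was above every WT library, but the WT libraries spread more than 3-fold. Acsbg1 missed the threshold (log2 fold change 1.16, SE 0.41, adjusted p = 0.0726, edgeR). It passed without WT 3 (0.80) or WT 7 (1.59), without a filter, with DESeq2, with limma-voom and on both FPKM scales, and adjusted p ran from 0.0133 to 0.249 over the alternatives. The astrocyte markers were lower in KO, and WT 3, the WT library with the lowest astrocyte sum, also had the lowest Acsbg1 of the WT libraries. The part of these cells in Acsbg1 was not tested.

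Per length, the synthetases exchanged first place. Acsl3 made up 65.4%, 57.9% and 59.5% of the summed FPKM of the 6 genes in the WT libraries, against 21.6%, 24.2% and 26.9% in the KO libraries. Acsbg1 made up 15.6%, 28.1% and 30.7% in WT and 58.3%, 57.3% and 52.1% in KO. The ratio of Acsl3 to Acsbg1 was thus 2.73 ± 1.27 in WT and 0.436 ± 0.0736 in KO (SD, n = 3 each). The sum over the 6 genes was 96.3 ± 25.3 FPKM in WT and 105 ± 12.7 FPKM in KO, a difference smaller than the spread. An exact permutation test of 3 against 3 libraries cannot go below p = 0.1 and was not run on these shares.

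**Figure D2:**
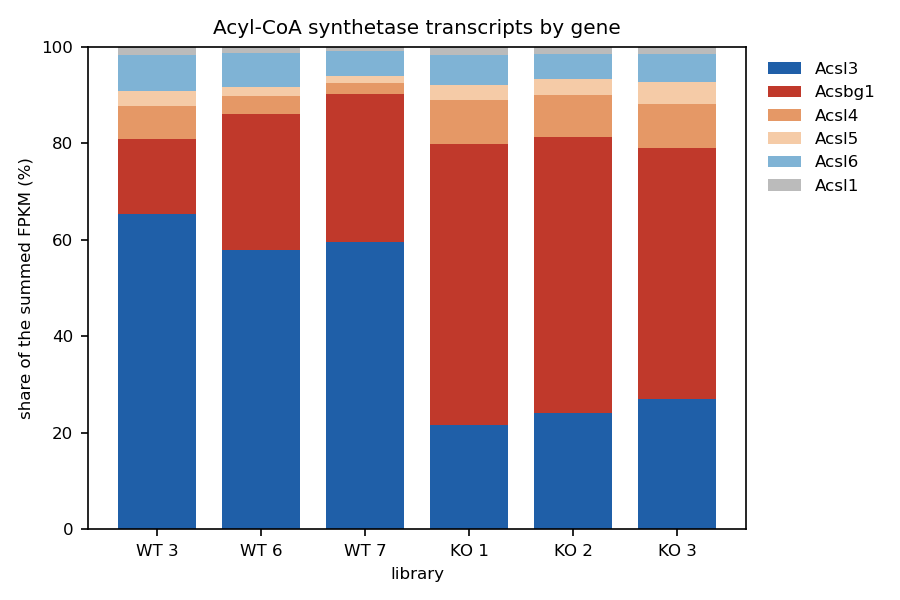
Share of the summed FPKM of 6 acyl-CoA synthetase genes (y axis, percent) in each of the 6 libraries (x axis), stacked by gene. Acsl3 (dark blue) holds 57.9% to 65.4% in WT libraries and 21.6% to 26.9% in KO libraries, and Acsbg1 (red) 15.6% to 30.7% and 52.1% to 58.3%.

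Of the binding proteins, Fabp5 fell and Fabp7 did not pass. Fabp5, the epidermal-type protein that delivers ligands to PPARD and is found in neurons and progenitors, had WT libraries at 771, 1082 and 929 CPM and KO libraries at 450, 472 and 485 CPM. The KO libraries were nearly equal and all under the lowest WT library (log2 fold change -0.98, SE 0.15, adjusted p = 0.00539, edgeR). Fabp7, the brain-type protein and a marker of radial glia, was the most abundant member at 1305 ± 165 FPKM in WT and 1303 ± 464 FPKM in KO (SD, n = 3 each). It was read at 1411, 1920 and 1677 CPM in the WT libraries, and at 1223, 2256 and 1310 CPM in the KO libraries, so KO 2 was the highest of all libraries and KO 1 the lowest (-0.06, SE 0.27, adjusted p = 0.872, edgeR). The sign of Fabp7 turned without WT 6, KO 1 or KO 3. The ratio of Fabp7 to Fabp5 in FPKM was 5.22, 5.07 and 5.15 in the WT libraries, which hardly differed, and 7.76, 13.7 and 7.71 in the KO libraries.

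**Figure D3:**
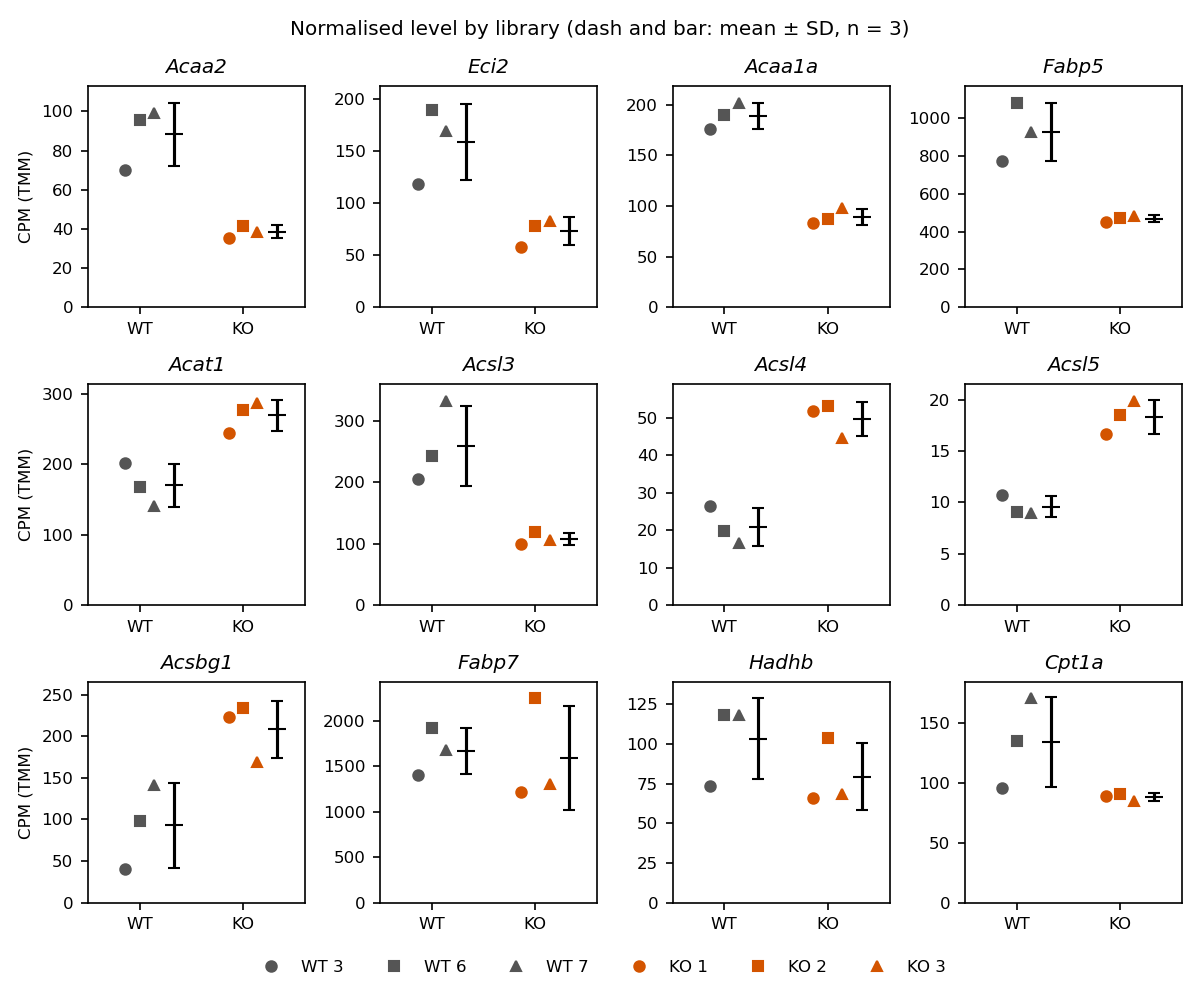
Normalised level (y axis, CPM, starting at 0) of 12 members in WT and KO libraries, each point 1 library and the dash with its bar the mean ± SD of 3. Acaa2, Eci2, Acaa1a, Fabp5 and Acsl3 lie lower in every KO library than in every WT library, Acat1, Acsl4, Acsl5 and Acsbg1 lie higher, and Fabp7 and Hadhb overlap.

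The thioesterases, which cleave acyl-CoA back to free acid, both fell. Acot1, the cytosolic form, stood at 124, 151 and 149 CPM (WT) against 66.9, 92.1 and 106 CPM (KO) (log2 fold change -0.68, SE 0.18, adjusted p = 0.0318, edgeR). Acot2, the mitochondrial form, had WT libraries at 16.8, 23.2 and 28.6 CPM and KO libraries at 8.29, 12.1 and 13.1 CPM (-1.03, SE 0.26, adjusted p = 0.0271, edgeR). The genes are near-identical neighbours on chromosome 12 between which reads can be split, and both calls were lost without WT 6, WT 7, KO 1 or KO 2.

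Overlapping genes limit 5 more members, since the use of strand in counting is not stated. Crat overlaps Dolpp1, Acadvl overlaps Dvl2, Hadha overlaps Garem2 and Echs1 overlaps Paox, none of which passed the test. Hsd17b4 overlaps the pseudogene Cd63-ps, which fell by 1.12 on the log2 scale (adjusted p = 0.0075, edgeR).

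Neither PPAR gene passed the threshold. Ppara, the receptor that drives oxidation genes in liver, was the least abundant member at 0.722 FPKM in WT. It was read at 2.18, 2.41 and 3.92 CPM in the WT libraries, and at 1.55, 1.29 and 1.51 CPM in the KO libraries (log2 fold change -0.97, SE 0.33, adjusted p = 0.0639, edgeR). Ppard, the form expressed throughout the brain, stood at 45.4, 47.2 and 46.4 CPM (WT) against 29.1, 38.2 and 41.4 CPM (KO) (-0.35, SE 0.15, adjusted p = 0.114, edgeR). In both genes all KO libraries lay under all WT libraries. Ppara passed without WT 3.

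Other genes of the pathway were read from the same fit, in which 15.5% of all tested genes fell and 13.5% rose. Of 31 further genes of mitochondrial oxidation, branched-chain dehydrogenation and ketone bodies, 29 were tested, 12 fell and 2 rose. The median log2 fold change was -0.35. Dbi, the acyl-CoA binding protein, fell from 1340 ± 284 to 470 ± 91.0 CPM (-1.51, SE 0.22), and Acad11, a dehydrogenase of long and branched chains, from 29.1 ± 4.78 to 12.9 ± 1.25 CPM (-1.17, SE 0.18; SD, n = 3 each). The branched-chain dehydrogenases Acadsb and Ivd fell by 0.92 (SE 0.10) and 0.83 (SE 0.12). These 4 calls held whichever library was left out.

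Peroxisomal genes beyond the members fell in 14 of 31 tested and rose in 1 (Acaa1b), with a median of -0.46. The shares over all tested genes were 15.5% lower and 13.5% higher. Scp2, a peroxisomal thiolase and sterol carrier, had WT libraries at 137, 185 and 195 CPM and KO libraries at 69.3, 74.2 and 77.5 CPM (log2 fold change -1.23, SE 0.15, adjusted p = 0.0027, edgeR). Abcd2, a transporter of very long-chain acyl-CoA, fell by 1.65 (SE 0.23), and Acox3, a branched-chain oxidase, by 0.89 (SE 0.14). In all 3 genes each KO library was under each WT library, and the calls held whichever library was left out.

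Uptake and activation genes outside the members went in both directions. Of 21 listed 12 were tested, 4 fell (15.5% of all tested genes) and 2 rose (13.5%), with a median of 0.52. Acss1, which activates acetate in mitochondria, fell from 284 ± 33.2 to 74.0 ± 18.1 CPM (-1.94, SE 0.20), and the transport protein Slc27a1 from 609 ± 78.7 to 280 ± 35.3 CPM (-1.12, SE 0.15). Lipoprotein lipase, Lpl, which frees fatty acids from lipoproteins, rose from 5.33 ± 2.67 to 25.8 ± 4.72 CPM (2.28, SE 0.37; SD, n = 3 each).

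Among 21 listed partners, coactivators and known targets of PPARs 19 were tested, with a median of -0.13. Of these 7 fell (15.5% of all tested genes) and 2 rose (13.5%). The targets Pdk4, which spares glucose by inhibiting pyruvate dehydrogenase, and Angptl4, a secreted inhibitor of lipoprotein lipase, were among the largest falls. Pdk4 was read at 26.3, 17.0 and 57.6 CPM in the WT libraries, and at 2.48, 4.04 and 5.10 CPM in the KO libraries (log2 fold change -3.11, SE 0.51, and -2.48 without WT 7). Angptl4 stood at 12.4, 16.1 and 12.5 CPM (WT) against 3.68, 1.67 and 1.79 CPM (KO) (-2.52, SE 0.36). Other genes of this list, named after their values were seen, differed. Txnip fell by 1.92 (SE 0.46), whereas Plin2 (-0.03, SE 0.12) and Ucp2 (0.72, SE 0.36) did not pass. Nr1h2, which encodes the sterol receptor LXR beta, fell by 0.53 (SE 0.09), and the coactivator-related gene Pprc1 rose by 0.87 (SE 0.12). Adjusted p-values of the genes named from these 4 lists by the lowest p lay between 0.00181 and 0.0068 (edgeR).

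Oxct1, the enzyme of ketone body use that activates acetoacetate, was read at 155, 140 and 111 CPM in the WT libraries, and at 267, 287 and 207 CPM in the KO libraries (log2 fold change 0.90, SE 0.17, adjusted p = 0.0107, edgeR), beside the rise of Acat1, which acts next to it. Every KO library was above every WT library. Oxct1 is named here on the basis of values already seen, and its call held whichever library was left out.

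**Figure D4:**
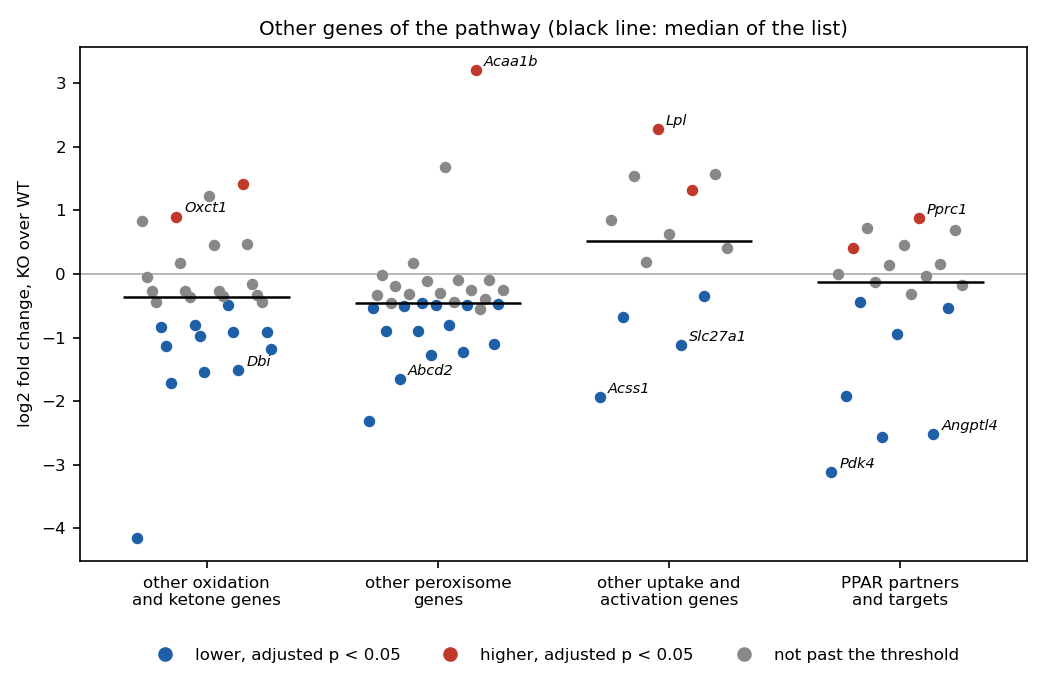
Log2 fold change of KO over WT (y axis) for tested genes of 4 further lists (x axis), each point 1 gene and the black line the list's median. Blue points fell, red points rose and grey points did not pass, and Pdk4 at -3.11 is the lowest point of the PPAR list. The median of the peroxisomal list is -0.46.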

How the data were processed

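RNA of 3 WT and 3 KO neurosphere libraries was sequenced. Reads were processed with HISAT2 2.0.5, featureCounts 1.5.0-p3 and DESeq2 1.16.1 on mm10, per the submitters' processing notes, which give no role or order. The deposited table holds raw counts per gene and FPKM that the authors computed from them. The counts of the members were recovered from FPKM, length and total. FPKM was used to compare levels between genes and for sums, shares and ratios, given for WT and KO without a test. It also served in the alternative limma runs. Whether counting used strand is not given in the sources used here.

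Counts of the 6 libraries were fitted with edgeR 4.0.16 (R 4.3.3) by its quasi-likelihood test, with TMM normalisation and filterByExpr, which left 16606 of 54532 genes. A gene was called at a Benjamini-Hochberg adjusted p under 0.05 over all tested genes. CPM (counts scaled to library size) are TMM-normalised, and fold changes are KO over WT. The biological coefficient of variation was 26.5%. Pairs of libraries within a group differed beyond counting noise (chi-square 17.3 to 75.5 times its degrees of freedom), so no library was treated as a copy of another. Whether they are independent cultures is not shown by this.

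The members and lists were chosen with earlier results of these data known. Text names all 36 members and, from each further list, up to 4 called genes with the lowest p. Exceptions are stated, and some genes that meet the rule are not reported here. Marker lists were summed per library. Alternatives were RLE factors, library totals, no filter, at least 1 CPM in 3 libraries, DESeq2 1.42.0, limma-voom with quality weights and limma on log2(FPKM + 1) or log2(FPKM + 0.1) for genes with a mean of at least 0.5 FPKM (limma 3.58.1), a test against 1.5-fold, and leaving out each library. Promoters came from the RefSeq table for GRCm38.p6. Protein sequences were not used here.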

Additional observations from a re-analysis of the deposited data

How the results depend on the processing

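The edgeR fit called 4812 genes (29% of those tested), among them 16 members and 44 of the 91 tested genes of the 4 further lists. With limma-voom these were 8052 genes and 30 members (5 higher, 25 lower), and against a 1.5-fold change 1522 genes, 4 members (1 higher, 3 lower) and 17 further genes. Leaving out 1 library at a time gave 2178 to 6641 genes, 9 to 23 members and 27 to 52 further genes. The cause of these shifts was not tested. By design the 1.5-fold test asks for a larger change. Each leave-out fit has fewer libraries, but the highest counts among them (6641 genes and 23 members) came without WT 3. Of the 16 member calls, 9 held whichever library was left out (Acadvl, Acadm, Eci2, Acaa2, Acaa1a, Acsl3, Acsl4, Acsl5 and Fabp5), and Acaa2, Acaa1a, Acsl3 and Acsl4 held under each of the 15 alternatives. Signs turned for Etfa without WT 6 or KO 3 (-0.2224 to 0.0328 over the libraries left out) and for Fabp7 without WT 6, KO 1 or KO 3 (-0.3951 to 0.1274), none of which passed. The median log2 fold change of all tested genes was 0.14 with no filter and 0.16 with DESeq2, against 0.00. No paired analysis was possible because the WT and KO libraries share only the replicate number 3.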
